A study of Homo sapiens with 4 samples.

Results

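Mitosis and spindle genes encode the proteins with which a cell condenses its chromosomes, builds the spindle and divides. A set of 44 such genes was chosen by symbol, and each was matched to a gene ID of the deposited tables, which list 61498 genes. Of the 44 genes, 43 had enough reads assigned to them to be tested, and UBE2C was the exception. The RNA came from K562, a human leukaemia line that the labels describe as erythroleukemia and that matures along the erythroid lineage when induced. Both libraries of the untreated condition came from cells grown without the drug, and both libraries of the hemin condition came from cells incubated for 108 h with 50 µM hemin, an iron-containing porphyrin. Both conditions share 1 cell line and 1 medium, and neither carries an engineered allele. The question put to these genes was whether the transcripts of the division machinery changed during hemin-induced differentiation, at a dose at which the submitters state that proliferation was not affected.

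Entry into mitosis is driven by the kinase CDK1 bound to A-type and B-type cyclins, and Polo and Aurora kinases then steer the assembly of the spindle. The spindle checkpoint holds back the anaphase-promoting complex (APC/C) until every kinetochore is attached to microtubules, after which the complex marks securin and cyclin B for destruction and the sister chromatids part. Many of these genes are transcribed late in the cell cycle, under the DREAM repressor complex in resting cells and under B-MYB and FOXM1 in dividing ones, and their transcripts usually rise and fall together with the share of dividing cells.

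Levels rest on expected counts, the reads per gene estimated with RSEM. They summed to between 7455447 and 8241534 per library. The mitochondrial genome took 12.8% to 13.6% of them. All 8 erythroid markers checked were expressed, and their summed TPM (transcript level corrected for length and depth) was 5480 and 5706 in the untreated libraries and 7028 and 6572 in the hemin libraries. The marker lists of other blood lineages were close to 0, at a summed TPM of 1.46 to 5.09 for 5 megakaryocyte markers, 1.4 to 2.5 for 5 myeloid markers and 0.54 to 1.62 for 4 lymphoid markers. PF4, PPBP, GP9, MPO, CD3E and MS4A1 were listed at 0 in every library. In whole-culture RNA, fewer cells in a given stage of the cycle and less RNA per cell cannot be told apart, and the sources used here describe neither sorting nor synchronisation. Nothing in the labels says whether the 2 libraries of a condition came from separate cultures, so p-values measure only the spread between these libraries.

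Most mitosis and spindle genes stayed close to their untreated level after 108 h of hemin. The summed TPM of the set was 2399 and 2340 in the untreated libraries and 2260 and 2266 in the hemin libraries, lower in both. Of the 43 genes tested, 5 changed (11.6%) by the quasi-likelihood test of edgeR (Benjamini-Hochberg adjusted p below 0.05 over 14458 genes), against 14.1% of all genes tested. BUB3, CENPF and NCAPH rose and AURKB and PTTG1 fell, that is 3 higher against a background of 7.00% and 2 lower against 7.14%. DESeq2 called 2 members higher and 1 lower, where 8.53% of all genes it adjusted were called. At an unadjusted p below 0.05 the edgeR count was 9 of 43 members and 4251 of 14458 genes. The groups of genes in which edgeR made no call held CCNA2, KIF2C and FOXM1 at such a p, and DESeq2 called none of their genes. Scaled by library size only, 1 member was higher and 4 were lower, with 729 of all genes higher and 1358 lower in place of 1012 and 1033. Fold changes were positive for 18 genes and negative for 25, with a median log2 fold change of -0.0147 (all genes tested, -0.0048). The libraries of the 2 conditions did not overlap for 9 genes in the higher direction and 11 in the lower direction, which is 46.5% of the members against 57.3% of all genes tested.

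These small differences were measured with fair precision. The members are well expressed, with a median untreated TPM of 51.1 against 15.3 for all genes tested, and the median standard error of their log2 fold change was 0.0661 against 0.111. The 95% interval of the change lay within 1.2-fold either way for 26 of the 43 genes, within 1.5-fold for 42 and within 2-fold for all 43. For the members that missed the threshold, the intervals therefore bound the change without showing that there was none. Single calls are given with their dependence on the library, in log2 fold changes of normalised counts (CPM, expected counts per library depth after edgeR's TMM scaling).

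**Figure D1:**
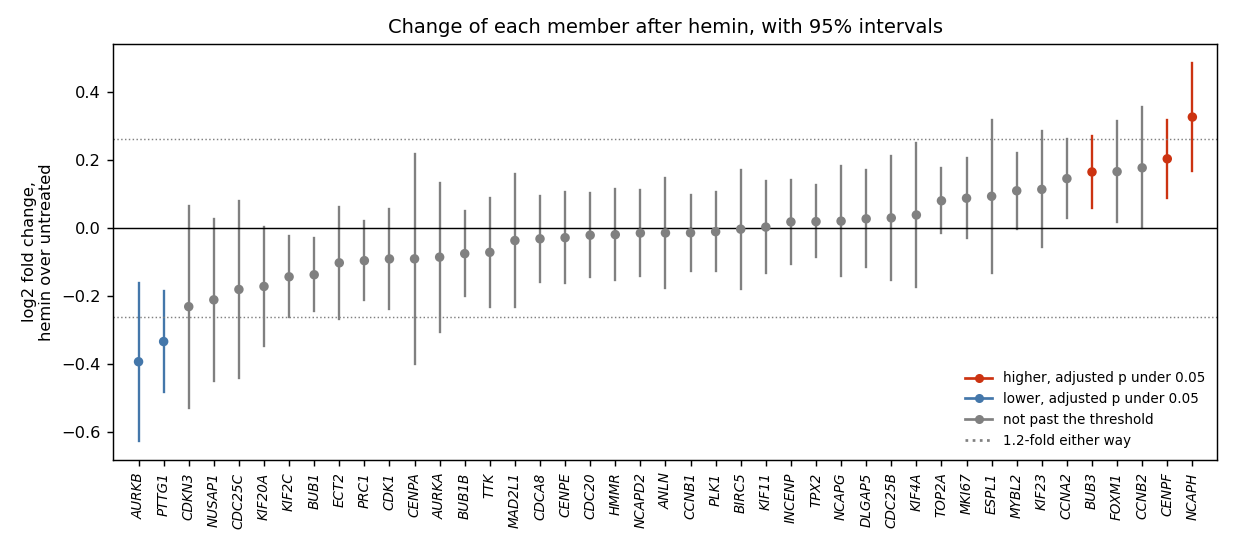
Each point is the log2 fold change (hemin over untreated) of 1 of the 43 tested genes, ordered from lowest to highest. Bars are 95% intervals derived from the edgeR test, and dotted lines mark 1.2-fold either way. AURKB (-0.39) and PTTG1 (-0.33) stand at the lower end and NCAPH (0.33) at the upper end, and 26 intervals lie inside the dotted lines.

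None of the 7 genes of the CDK1 and cyclin group passed the test. CDK1, the kinase itself, was measured at 86.6 and 96.7 CPM in the untreated libraries and 84.3 and 87.5 CPM in the hemin libraries, which overlap. CCNB1, the main mitotic cyclin, stood at 132 and 130 CPM before and 133 and 127 CPM after hemin, and its log2 fold change was -0.0145 (95% interval -0.126 to 0.097). Its TPM of 141 ± 4.07 (SD, n = 2) made it one of the 3 most abundant transcripts of the set. The other B-type cyclin, CCNB2, was listed at 58.8 and 68.9 CPM untreated and at 71.9 and 72.3 CPM with hemin. Its hemin libraries were both above its untreated ones, yet its log2 fold change of 0.18 ± 0.079 (SE) had an edgeR adjusted p of 0.171. CCNA2, which encodes cyclin A, gave 98.0 and 100 CPM against 111 and 109 CPM, again without overlap and short of the threshold (log2 fold change 0.15, edgeR adjusted p = 0.091). Among the phosphatases that switch CDK1 on or off, CDC25B, CDC25C and CDKN3 had log2 fold changes of 0.03, -0.18 and -0.23. CDC25C and CDKN3 are among the lower expressed members, at 14.0 to 18.2 CPM, and their edgeR adjusted p were 0.349 and 0.288.

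The Polo and Aurora kinases that act at centrosomes did not pass the test either. PLK1, which drives centrosome maturation and kinetochore attachment, was at 109 and 108 CPM untreated and 110 and 106 CPM with hemin, a log2 fold change of -0.0110 with a 95% interval of -0.127 to 0.105. AURKA, the kinase of the spindle poles, gave 46.1 and 50.3 CPM against 41.1 and 49.5 CPM. Its hemin libraries lay on both sides of untreated replicate 1, and its log2 fold change was -0.09 ± 0.0973 (SE).

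In the chromosomal passenger complex, AURKB fell and its 3 partners did not pass the test. AURKB (ENSG00000178999), the kinase that corrects faulty attachments and acts in cytokinesis, lies from 8204733 to 8210600 on the minus strand of chromosome 17 (GRCh38). It was measured at 46.3 and 51.1 CPM in the untreated libraries and at 33.2 and 40.7 CPM in the hemin libraries, and the conditions did not overlap. It fell by 0.39 ± 0.103 on the log2 scale (SE, edgeR adjusted p = 0.0343), a level of 0.761 times the untreated one. INCENP, the scaffold of the complex, was at 99.6, 97.9, 96.9 and 103 CPM, in the order untreated replicates 1 and 2 and hemin replicates 1 and 2. BIRC5 (survivin) gave 74.5, 87.5, 79.2 and 82.1 CPM and CDCA8 (borealin) 79.2, 78.8, 77.1 and 77.3 CPM in the same order. The AURKB fall rested in part on hemin replicate 1. Without that library the log2 fold change was -0.25, and the edgeR test also missed the threshold without either untreated library, with adjusted p up to 0.175 over the libraries left out. DESeq2 gave AURKB an adjusted p of 0.0665.

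Of the 5 spindle checkpoint genes, BUB3 rose and the other 4 did not pass the test. BUB3 (ENSG00000154473), which carries BUB1 and BUBR1 to the kinetochore, lies from 123154402 to 123170467 on the plus strand of chromosome 10. Its levels were 140 and 145 CPM untreated and 163 and 157 CPM with hemin, with both hemin libraries above the untreated ones. The log2 fold change was 0.16 ± 0.0476 (SE, edgeR adjusted p = 0.0487), the smallest of the 5 changes that passed. It was lost in each of the 4 fits that left out a library (adjusted p up to 0.19), with the replicate number as a block (0.0763) and in DESeq2 (0.14). BUB1, a kinase that docks on the kinetochore, was at 130 and 133 CPM against 120 and 119 CPM (log2 fold change -0.14, edgeR adjusted p = 0.0875). BUB1B (BUBR1), MAD2L1 (MAD2), which forms the inhibitor of the APC/C, and the kinase TTK (MPS1) had log2 fold changes of -0.08, -0.04 and -0.07.

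Of the 3 centromere and kinetochore genes, CENPF rose. CENPF (ENSG00000117724), a large protein of the outer kinetochore, lies from 214603185 to 214664574 on the plus strand of chromosome 1. It stood at 285 and 279 CPM in the untreated libraries and 309 and 340 CPM in the hemin libraries, without overlap. The log2 fold change was 0.20 ± 0.0511 (SE, edgeR adjusted p = 0.029), and DESeq2 gave an adjusted p of 0.0117. The edgeR call was lost without either untreated library and without hemin replicate 2, the higher of the hemin libraries, where the log2 fold change was 0.13. CENPE, a kinesin that moves chromosomes to the spindle equator, gave 116, 115, 107 and 119 CPM in the order above. CENPA, the histone that marks the centromere, was at 14.8 to 18.4 CPM, and its wide 95% interval ran from -0.401 to 0.219.

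The 5 kinesin motors did not pass the test. KIF11, which pushes the spindle poles apart, was at 85.0, 82.9, 80.9 and 87.1 CPM in the order untreated 1, untreated 2, hemin 1 and hemin 2, a log2 fold change of 0.0025. KIF2C, which removes tubulin from microtubule ends at kinetochores, gave 155 and 167 CPM untreated and 148 and 144 CPM with hemin. The conditions did not overlap, but the log2 fold change of -0.14 had an edgeR adjusted p of 0.103. KIF20A and KIF23, motors of the central spindle, moved in opposite directions on the scale of the fold change, at -0.17 and 0.11, and KIF4A was at 0.04. Neither KIF20A (edgeR adjusted p = 0.175) nor KIF23 (0.368) passed.

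Spindle assembly and cytokinesis genes were likewise without a call. TPX2, which activates Aurora A and nucleates microtubules around chromosomes, was measured at 204 and 207 CPM against 215 and 202 CPM. HMMR and DLGAP5, which bind and bundle spindle microtubules, had log2 fold changes of -0.0197 and 0.0268. PRC1, which cross-links the central spindle, was at -0.10. NUSAP1, another microtubule binder, gave 98.2 and 84.8 CPM untreated and 69.6 and 88.1 CPM with hemin, so that only hemin replicate 1 lay below the untreated libraries. Without hemin replicate 2 its log2 fold change of -0.40 passed the edgeR test, and with all 4 libraries (-0.21, adjusted p = 0.224) it did not. ANLN (anillin) and ECT2, both needed for the cleavage furrow, were at -0.0147 and -0.10.

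**Figure D2:**
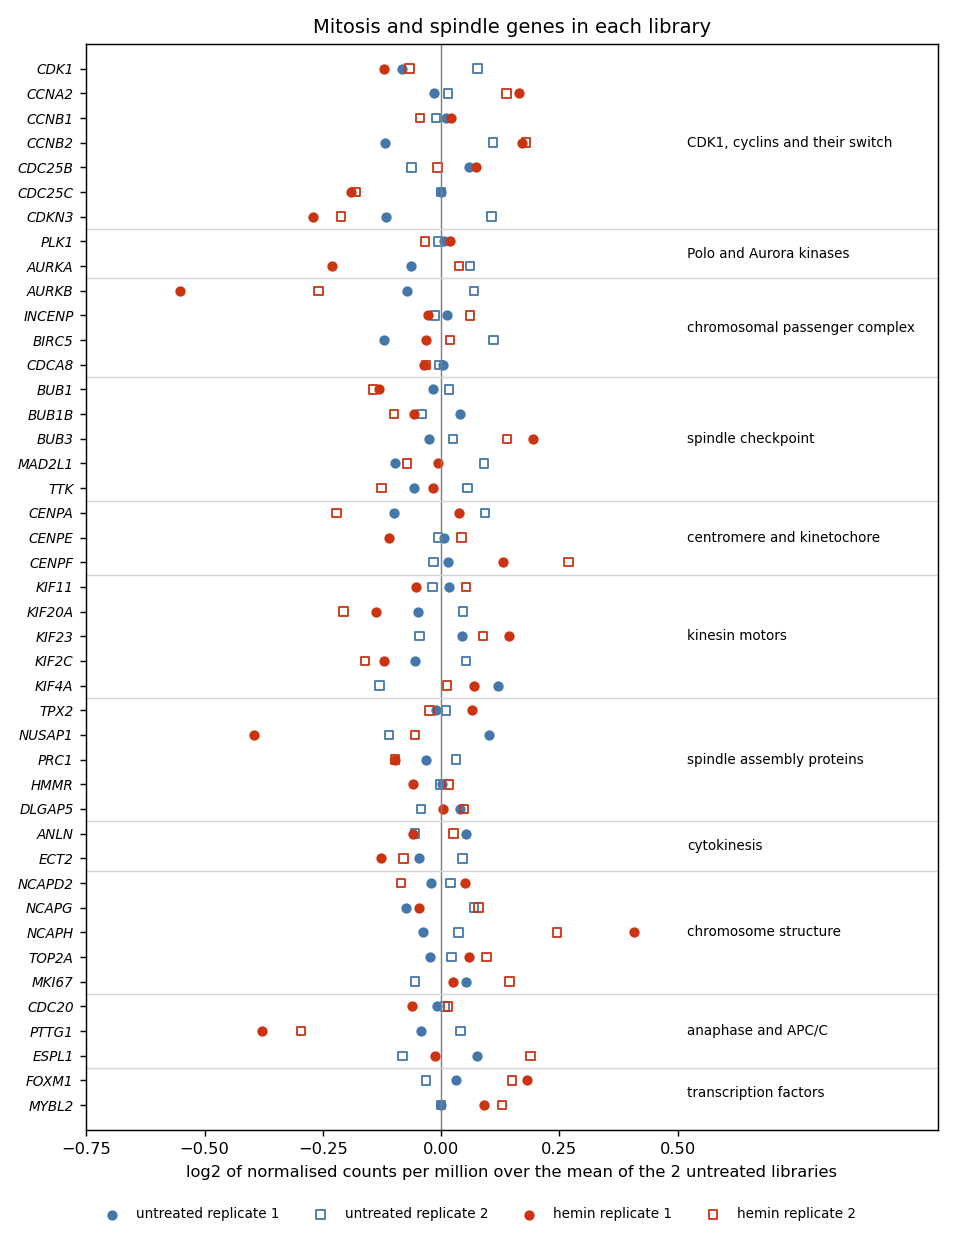
Each row is 1 of the 43 tested genes, grouped by role, and each mark is 1 library, placed at the log2 of its CPM over the mean of the 2 untreated libraries. Hemin marks lie apart from untreated marks on the left for AURKB and PTTG1 and on the right for NCAPH, whereas for NUSAP1 hemin replicate 1 stands alone on the left.

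Among 5 genes of chromosome structure, NCAPH rose and the others did not pass. NCAPH (ENSG00000121152), the kleisin subunit that closes the ring of condensin I, lies from 96335766 to 96377091 on the plus strand of chromosome 2. Its levels were 65.9 and 69.4 CPM in the untreated libraries and 89.7 and 80.2 CPM in the hemin libraries, without overlap. The log2 fold change was 0.33 ± 0.0709 (SE, edgeR adjusted p = 0.0165), the largest rise of the set, and DESeq2 gave an adjusted p of 0.0182. Leaving out untreated replicate 1 or hemin replicate 1 took it over the threshold, at adjusted p up to 0.0951, with log2 fold changes of 0.29 and 0.25. Its partners in condensin I, NCAPD2 and NCAPG, had log2 fold changes of -0.0151 and 0.0200. TOP2A, the topoisomerase that untangles sister chromatids, gave 257, 265, 272 and 279 CPM, with both hemin libraries above the untreated ones (log2 fold change 0.08, edgeR adjusted p = 0.247). MKI67, the Ki-67 protein of the chromosome surface and a common marker of dividing cells, gave 487, 452, 478 and 519 CPM, which overlap, with a 95% interval of -0.031 to 0.206.

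Of the genes that act at anaphase, PTTG1 fell. PTTG1 (ENSG00000164611) encodes securin, the inhibitor that holds separase until the APC/C destroys it, and lies from 160421855 to 160428739 on the plus strand of chromosome 5. It was the most abundant transcript of the set per length, at a TPM of 156 ± 7.13 (SD, n = 2) untreated and 117 ± 2.89 (SD, n = 2) with hemin. In CPM it stood at 71.2 and 75.4 untreated and 56.4 and 59.7 with hemin, without overlap. It fell by 0.33 ± 0.0666 on the log2 scale (SE, edgeR adjusted p = 0.0115), a level of 0.793 times the untreated one. Of the 13 alternative fits, 10 made the same call, which is the most of any member. The call was lost without untreated replicate 2 (edgeR adjusted p = 0.0718) and on both TPM scales, whereas DESeq2 kept it at 0.0361. CDC20, which the checkpoint blocks and which activates the APC/C, was at 95.2, 96.3, 91.8 and 96.7 CPM, a log2 fold change of -0.0214.

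ESPL1, which encodes separase, gave 34.6, 31.0, 32.5 and 37.4 CPM in the same order, and its direction depended on the scale. The log2 fold change was 0.09 in counts and -0.34 in log2(TPM + 1) by limma. The effective length the authors used for it was 4029 and 3130 bases in the untreated libraries and 4826 and 4718 bases in the hemin libraries, and counts per length therefore moved the other way. MKI67 also turned its sign, to -0.0990 on the TPM scale. UBE2C, the ubiquitin-conjugating enzyme of the APC/C, was listed at 0 and 7 counts untreated and 4 and 1 counts with hemin, that is at a TPM of 0 to 2.18. A listed 0 cannot be told from as many as 3 counts, which equal 0.364 to 0.402 CPM here, and no direction can be given for UBE2C. Whether UBE2C was barely expressed or its reads were lost in quantification was not tested.

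Both transcription factors of the set were higher in each hemin library than in each untreated library, and neither passed the test. The same order was found for 28.1% of all genes tested. FOXM1 gave 54.5 and 52.2 CPM against 60.5 and 59.2 CPM (log2 fold change 0.17 ± 0.0666, SE). MYBL2, which encodes B-MYB, gave 107 and 107 CPM against 114 and 117 CPM (0.11 ± 0.0497, SE). Their edgeR adjusted p were 0.132 and 0.179. The ratio of FOXM1 to MYBL2 counts overlapped between conditions, at 0.509 and 0.489 untreated and 0.53 and 0.509 with hemin, whereas in TPM it did not (0.511 and 0.509 against 0.564 and 0.536).

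Within a library, the ratio of 2 genes does not depend on the scaling between libraries, although it does on the correction for transcript length, and such ratios set the genes that changed beside partners with which they work. The pairs were chosen after the values were seen, and no test is reported for them. The ratio of AURKB to INCENP counts was 0.465 and 0.523 in the untreated libraries and 0.342 and 0.395 in the hemin libraries. For AURKB and AURKA the ratio went from 1 and 1.01 to 0.806 and 0.821, lower in both hemin libraries. PTTG1 counts were 2.05 and 2.44 times those of ESPL1 untreated and 1.73 and 1.6 times with hemin. That order held in counts and not in TPM, where the ratio of securin to its target separase was 12.5 and 11.8 untreated and 12.4 and 11 with hemin, which overlap. NCAPH stood at 0.476 and 0.49 of NCAPD2 before and at 0.617 and 0.608 after hemin, and at 0.917 and 0.875 of NCAPG before and 1.23 and 1 after. BUB3 stood at 1.08 and 1.09 of BUB1 before and 1.36 and 1.32 after hemin, and CENPF at 2.46 and 2.42 of CENPE before and 2.89 and 2.86 after. In counts the 2 conditions did not overlap for any of these pairs. The first gene of each pair had been called without overlap by itself, so the ratios add no support to the calls. In TPM, NCAPH to NCAPG overlapped as well, at 2.17 and 1.8 untreated and 2.88 and 2.15 with hemin, while the other pairs named here, PTTG1 to ESPL1 excepted, did not.

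Levels are also shared where genes overlap. Of the 44 members, 13 overlap another annotated gene that carries over 20 counts in all libraries together, 4 of them on the same strand, and no source used here says that reads were counted by strand. None of AURKB, PTTG1, BUB3, CENPF and NCAPH is among them. NUSAP1 shares its strand with OIP5-AS1 (850 to 970 counts) and with ENSG00000285920, and RSEM's posterior standard deviation was 4.61% of its count, the highest of the set. Summed with ENSG00000285920, NUSAP1 counts were 820 and 814 untreated and 629 and 772 with hemin. The values of NUSAP1 are therefore uncertain, as are those of PRC1, where ENSG00000284946 took 364 to 494 counts. CENPA, at 119 to 138 counts, shares its strand with SLC35F6, at 408 and 414 counts untreated and 465 and 507 with hemin. RSEM's posterior standard deviation was 0.691% of the CENPA count. BUB1B shares its strand with PAK6 (4 to 13 counts). Reads of CCNA2 and EXOSC9, of CDC25C and FAM53C, and of KIF20A with BRD8 and CDC23 cannot be told apart by strand where these genes overlap.

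What the members share outside the expression data can be read in their promoters. RefSeq windows (GRCh38.p14) from 250 bases before to 50 bases after the transcription start were found for 37 of the 44 genes. AURKA, BIRC5, BUB3, TTK, TPX2, UBE2C and FOXM1 have no entry. Each window was searched on both strands for the CHR element (TTTGAA or TTTAAA), through which DREAM and B-MYB complexes act, for the CCAAT box (CCAAT), bound by NF-Y, and for E2F-type sites (the letters TTCCCGC, the letters TTGGCGC, the letters TTCGCGC or the letters TTGCCGC). The letters TTTAAA read the same on both strands and were counted once. The B-type cyclins are shown here as the familiar arrangement of these letters, beside the 4 genes that changed and have an entry. Each line holds the 160 bases before the start, 5′ to 3′ on the gene's strand, with CHR and CCAAT letters in capitals (ATTGG is CCAAT on the other strand).
CCNB1: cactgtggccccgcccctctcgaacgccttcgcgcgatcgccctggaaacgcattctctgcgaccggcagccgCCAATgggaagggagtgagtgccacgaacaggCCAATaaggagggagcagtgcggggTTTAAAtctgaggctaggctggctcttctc
CCNB2: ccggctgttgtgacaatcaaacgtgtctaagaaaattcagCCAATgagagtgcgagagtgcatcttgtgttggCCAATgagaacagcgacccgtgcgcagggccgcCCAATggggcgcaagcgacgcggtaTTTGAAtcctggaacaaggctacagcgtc
PTTG1: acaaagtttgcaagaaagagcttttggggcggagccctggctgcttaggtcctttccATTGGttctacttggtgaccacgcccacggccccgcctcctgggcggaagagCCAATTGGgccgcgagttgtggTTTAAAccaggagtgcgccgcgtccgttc
AURKB: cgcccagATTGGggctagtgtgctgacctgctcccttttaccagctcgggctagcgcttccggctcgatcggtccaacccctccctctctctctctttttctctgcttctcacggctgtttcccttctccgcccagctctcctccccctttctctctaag
CENPF: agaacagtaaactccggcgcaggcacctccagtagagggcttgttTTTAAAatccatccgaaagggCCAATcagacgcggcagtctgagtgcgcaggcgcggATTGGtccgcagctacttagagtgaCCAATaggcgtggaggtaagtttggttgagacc
NCAPH: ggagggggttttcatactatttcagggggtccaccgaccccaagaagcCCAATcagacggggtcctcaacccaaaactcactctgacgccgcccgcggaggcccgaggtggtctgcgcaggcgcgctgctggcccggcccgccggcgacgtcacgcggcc

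These windows are CCNB1 chr5:69166990-69167149 (plus strand), CCNB2 chr15:59104986-59105145 (plus), PTTG1 chr5:160421695-160421854 (plus), AURKB chr17:8210226-8210385 (minus), CENPF chr1:214603035-214603194 (plus) and NCAPH chr2:96335606-96335765 (plus). CCNB2 carries CCAAT at -120, -87 and -54 bases from the start and TTTGAA at -29. CCNB1 has CCAAT at -87 and -55 and TTTAAA at -30. PTTG1 has CCAAT at -103, -51 and -48 and TTTAAA at -29, close to the layout of the cyclins. The AURKB window holds 1 CCAAT match, at -153, and no CHR letters. It lies inside the gene, whose bounds end at 8210600, so the bases before that end were not searched. CENPF has TTTAAA at -115 and TTTGAA at 41, and NCAPH has TTTAAA at 33, outside the letters shown.

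CHR letters were found in 31 of the 37 promoters (83.8%), against 15.9% of the 10024 genes tested that have a window and 24.3% of all 27305 promoters of the table. The CCAAT box was present in 29 (78.4%), against 37.4% and 35.7%, and E2F-type letters in 10 (27%), against 21.1% and 13.1%. The median position of the 49 CHR matches was -35 bases from the start and that of the 63 CCAAT matches -79 bases. Both motifs occurred together in 26 members, whose median log2 fold change was -0.015. The 6 members without CHR letters in the window searched were BUB1, CCNA2, CDC25C, AURKB, CDC25B and MYBL2, with a median of -0.054. For AURKB that window does not reach the bases before the gene, and the windows of the others named were not compared with their gene bounds. A match is a description of these letters and not of a bound site.

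**Figure D3:**
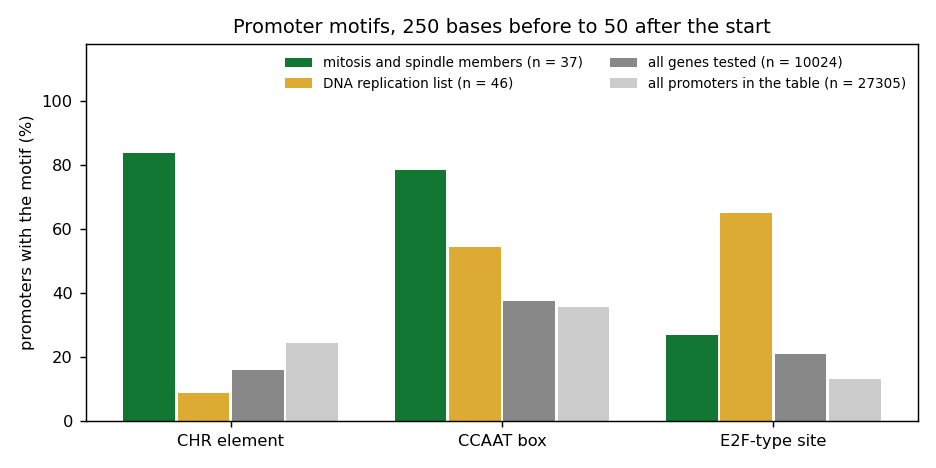
Bars give the percentage of promoters, from 250 bases before to 50 after the RefSeq start, that hold a CHR element, a CCAAT box or an E2F-type site, for 37 mitosis and spindle genes, 46 DNA replication genes, 10024 genes tested and all 27305 promoters. The mitosis and spindle bars are high for CHR (83.8%) and CCAAT (78.4%), and the DNA replication bar is high for E2F-type sites (65.2%). For CCAAT the DNA replication bar (54.3%) also stands above those of genes tested (37.4%) and all promoters (35.7%).

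The mitosis and spindle genes were set beside 6 further lists of the division machinery, holding 149 genes, and a list of 53 DNA replication genes. Over the 6 lists together, 147 genes were tested, 13 rose and 4 fell by edgeR (11.6%, against 14.1% of all genes tested), with a median log2 fold change of 0.0222. Of 38 other kinetochore and centromere genes, 1 fell, CENPH (62.5 and 64.2 CPM untreated, 52.6 and 52.3 CPM with hemin), and the median was 0.0466. Of 18 APC/C genes and regulators, 1 rose, the subunit CDC27 (log2 fold change 0.22), and the median was 0.0086. Among 28 centrosome genes, the scaffold PCNT (0.29) and PLK4 (0.32), the kinase of centriole duplication, rose, while the list's median was -0.0648. Of 34 other kinesin and spindle genes, STMN1 (0.27), RAN (0.26) and RCC1 (0.25) rose and PSRC1 (-0.47) and PIMREG (-0.49) fell. STMN1 destabilises microtubules, and RAN and its exchange factor RCC1 guide spindle assembly as well as nuclear transport.

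Other kinases and phosphatases of mitotic entry were tested for 17 of 19 genes. By edgeR 3 rose (17.6%) and 0 fell, against 7.00% of all genes tested called higher and 7.14% lower. The rises were CDK7 (0.39), which activates CDK1 and also acts in transcription, the phosphatase CDC25A (0.34) and ARPP19 (0.17), which inhibits a phosphatase that opposes CDK1. In the DREAM and MuvB list, 4 of 12 genes rose and 1 fell, against 7.00% of all genes tested called higher and 7.14% lower, and the median was 0.1976. RBL1 (p107) rose by 0.37 and E2F4 by 0.32, RBBP4 and TFDP2 rose by 0.22 each, and RBL2 (p130), the pocket protein of resting cells, fell. RBL2 stood at 96.3 and 94.1 CPM untreated and 73.2 and 76.2 CPM with hemin (log2 fold change -0.35, edgeR adjusted p = 0.00471).

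The DNA replication list gave a different count. Of its 53 genes, 16 rose and none fell by edgeR (30.2%, against 7.00% of all genes tested called higher and 7.14% lower), at a median of 0.1587. DESeq2 called 11 of them higher and 0 lower. The libraries did not overlap for 32 genes in the higher and 3 in the lower direction, against 28.1% and 29.3% of all genes tested. An unadjusted edgeR p under 0.05, in either direction, was found for 25 of the 53 and for 4251 of 14458 genes. MCM5, a subunit of the replicative helicase, showed the largest rise of that list, from 121 and 112 CPM to 189 and 193 CPM (log2 fold change 0.71, edgeR adjusted p = 0.000118). The next largest log2 fold change of the list was 0.37, for MCM7. The mitosis and spindle genes gave 3 rises among 43, and the difference between the lists was not tested. In the replication promoters, CHR letters were present in 4 of 46 (8.7%) and E2F-type letters in 30 (65.2%). The CCAAT box was present in 25 (54.3%), also above the 37.4% of genes tested and 35.7% of all promoters. The summed TPM of the replication list was 3308 and 3388 untreated and 3697 and 3709 with hemin, higher in both hemin libraries.

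**Figure D4:**
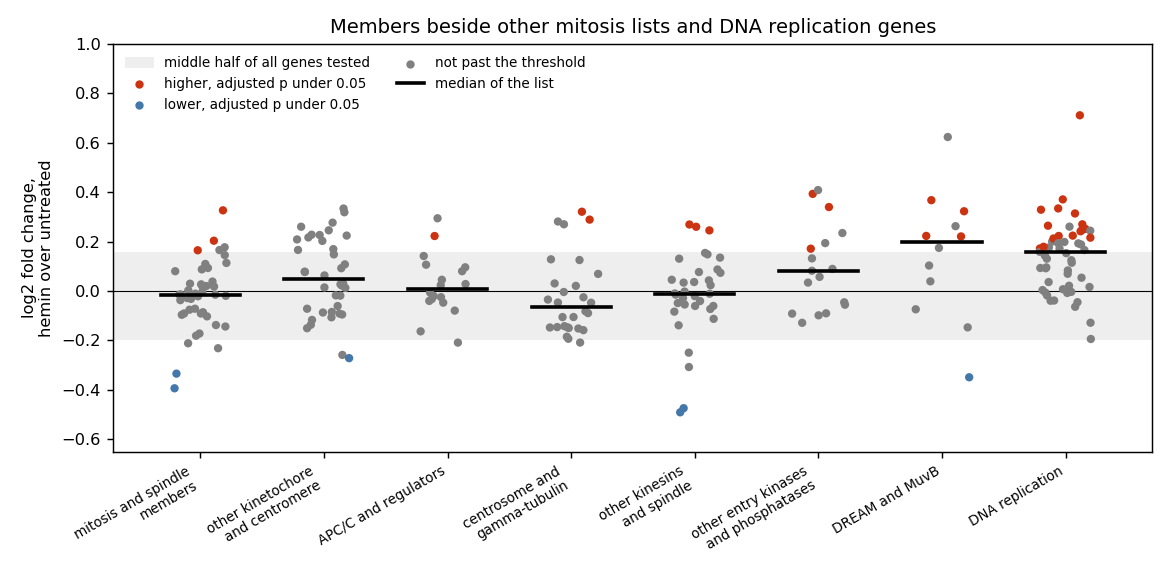
Each point is the log2 fold change (hemin over untreated) of 1 gene, with 1 column for the 43 mitosis and spindle genes, 6 for the other lists of the division machinery and 1 for DNA replication, where black bars are list medians and the grey band spans the quartiles of all genes tested. The medians are -0.0147 for mitosis and spindle genes and 0.1587 for DNA replication, where 16 of 53 points passed the test upward.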

How the data were processed

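Poly(A) RNA of 2 untreated and 2 hemin-treated K562 libraries was sequenced in reads of 50 bases. The authors trimmed the reads (Trimmomatic 0.39) and quantified them with RSEM 1.3.1 on STAR 2.7.5c alignments to the human genome (GRCh38). The deposited expected counts estimate how many reads belong to each gene. RSEM shares out reads of ambiguous origin between genes, and the counts are not normalized. The deposited TPM scale them by effective length and depth. The posterior mean counts, posterior standard deviations and effective lengths are also the authors' RSEM values. FPKM and the authors' own comparison table of fold changes were not used.

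The 44 members and all lists were chosen with earlier results of these data known. Symbols were matched through the authors' TPM tables. Expected counts were rounded, filtered with filterByExpr (14458 of 61498 genes), scaled by TMM (factors 0.983 to 1.018) and tested with edgeR 4.0.16 (quasi-likelihood, two-sided) in R 4.3.3. The Benjamini-Hochberg adjusted p had to be below 0.05, and edgeR's common dispersion came to 0.001179. Replicates differed beyond sampling noise, with a mean chi-square per tested gene of 1.83 (untreated) and 2.22 (hemin). An exact permutation test of 2 against 2 libraries cannot go below a two-sided p of 0.333. It was computed for the ratios of partner genes only, and no result rests on it. All members were reported, and genes of the other lists were named where they passed the test. Tried as alternatives were DESeq2 1.42.0, RLE factors, scaling by library size alone, no filter, a minimum of 20 counts in both libraries of either condition, a replicate block, each library left out, posterior mean counts, and limma 3.58.1 on log2(TPM + 1) and log2(TPM + 0.1). Standard errors were derived as the absolute log2 fold change over the square root of edgeR's F statistic. Intervals were built from them with a t quantile, and both are approximate. Floors (3 counts) and intervals (95%) cover counting error and the spread between libraries only. Scripts were tested on simulated data. Gene bounds came from GENCODE 44 and promoters from RefSeq, the first listed window per gene. For AURKB, CCNB1, CCNB2, CENPF and PLK1 the transcription start of that window lies inside the gene bounds. For PLK1 the bases before the start end at 23678888, and the gene begins at 23677656. Apart from PTTG1, NCAPH and CDC20, the other members' windows were not compared with their bounds.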

Additional observations from a re-analysis of the deposited data

How the results depend on the processing

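With 2 libraries per condition, calls near the threshold depended on single libraries. Where 1 library remained in a condition, its spread was taken from the other condition. Without 1 library, edgeR called 0 to 1 mitosis and spindle genes higher and 0 to 3 lower (3 and 2 with all libraries), 4 to 9 and 2 to 3 genes of the other mitosis lists (13 and 4), 8 to 14 DNA replication genes higher (16), and 469 to 934 of all genes higher and 512 to 884 lower (1012 and 1033). The members' median ranged from -0.0271 to 0.0160. PTTG1 passed in 3 of the 4 such fits, NCAPH in 2, AURKB and CENPF in 1 each and BUB3 in 0. DESeq2 called 597 genes higher and 483 lower, 1 mitosis and spindle gene lower, and 7 and 2 genes of the other mitosis lists. By library size only, 1 mitosis and spindle gene was higher, 4 were lower and 8 genes of the other mitosis lists were higher. The mitosis and spindle median was then -0.0535 and that of all genes -0.043. By limma on log2(TPM + 1) and log2(TPM + 0.1), 14 and 15 genes were higher and 33 and 34 lower. In either direction these held 0 and 0 mitosis and spindle genes and 0 and 0 other mitosis genes. DNA replication genes called higher were 1 and 1. The mitosis and spindle median was -0.0643 and -0.0668, against -0.029 and -0.033 for all genes tested. The cause of these differences between fits was not tested. From 100 bases before to 50 after the start, E2F-type letters were in 13.5% of the members' promoters, against 11.7% of genes tested and 7.28% of all promoters. In that window CHR letters were in 73% of the members' promoters, against 6.28% and 11.3%. The CCAAT box was in 64.9%, against 24.4% and 22%.

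The replicate numbers were not taken to pair the libraries: the labels name no shared batch or day. Deviations of same-numbered libraries correlated at 0.00 over all genes tested, which does not settle whether some genes shared a batch. With the replicate number as a block, 855 genes were higher and 886 lower, and 2 mitosis and spindle genes were higher and 2 lower.

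Signs turned for members near 0 that had not passed the test. By library size only the log2 fold changes were CDC25B -0.0093, INCENP -0.0210, KIF11 -0.0363, KIF4A -0.0008, TPX2 -0.0199, DLGAP5 -0.0121 and NCAPG -0.0187. By limma on log2(TPM + 1) and log2(TPM + 0.1) they were CDC25B -0.0833 and -0.0869, PLK1 0.0410 and 0.0415, MAD2L1 0.0006 and 0.0006, CENPE 0.0233 and 0.0243, KIF11 -0.0282 and -0.0293, TPX2 -0.0116 and -0.0117, ANLN 0.1632 and 0.1706, MKI67 -0.0990 and -0.1005, ESPL1 -0.3372 and -0.3639. Without the count filter they were PLK1 0.0013 and BIRC5 0.0083, and BIRC5 was 0.0011 with RLE factors and 0.0046 in DESeq2. Over the libraries left out they ranged for CCNB1 -0.0403 to 0.0191, CDC25B -0.0252 to 0.0920, PLK1 -0.0321 to 0.0179, AURKA -0.2293 to 0.0441, INCENP -0.0271 to 0.0659, BIRC5 -0.1173 to 0.1181, MAD2L1 -0.1302 to 0.0614, CENPA -0.2162 to 0.0362, CENPE -0.1075 to 0.0490, KIF11 -0.0538 to 0.0607, KIF4A -0.0760 to 0.1708, TPX2 -0.0218 to 0.0663, HMMR -0.0584 to 0.0228, DLGAP5 -0.0095 to 0.0688, ANLN -0.0630 to 0.0408, NCAPD2 -0.0781 to 0.0549, NCAPG -0.0514 to 0.0954, CDC20 -0.0604 to 0.0214, ESPL1 -0.0158 to 0.1955. Other results of single members kept their direction in all 13 alternatives, which the 5 genes that passed the test did as well.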
